A study of Homo sapiens with 12 samples.

Results

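The genes ACTB, GAPDH, EGR1, CALM3, BTBD19, ING3, TFPT and APOE are used as positive control sites in assays of R-loops, and their peaks are described here locus by locus. The 8 genes were taken by name from 19866 protein-coding genes, and each locus was the gene with 5 kb on either side. All 8 had at least 1 RNaseH1 peak in that window, 20 peaks in all, where 82.1% of all protein-coding genes had one. CALM3, 1 of the 8, had a REXO4 peak, where 6.16% of all did. An RNaseH1 peak covered the gene start at 7 loci (54.6% of protein-coding genes with a known strand), and no summit lay within 1 kb of a gene end at any of the 8 (8.95%).

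The peaks come from Flag ChIP-seq in U2OS cells, a human osteosarcoma line, in which tagged protein is precipitated from formaldehyde-fixed chromatin and the attached DNA is sequenced. The cells carried a tet-on transgene, switched on by doxycycline, for REXO4-D386A or RNaseH1-D210N, both labelled nuclease-dead. The labels describe 12 libraries in 8 groups. Doxycycline (1 µg/ml, about 60 h) was given or left out in each line, with 2 replicate ChIP libraries and 1 input every time. All groups carried a transgene, and nothing in the labels describes removal of the cells' own REXO4 or RNaseH1 or says whether a line was a single clone. Only 2 peak lists were analysed, 54623 RNaseH1 peaks and 1460 REXO4 peaks, 1 list per protein. Which libraries and doxycycline condition lie behind a list was not given in the sources used here. Without values for single libraries, no result below has a replicate error or a p-value between groups, and the lists hold no expression values with which the cell type could be checked.

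An R-loop forms when RNA, usually a nascent transcript, pairs with the template DNA strand and leaves the other strand unpaired. RNaseH1 binds such RNA:DNA hybrids and cuts their RNA strand, and a mutant without nuclease activity still binds them, which is why it serves as a probe. REXO4 is a protein of the nucleolus with an exonuclease domain, and far less is known of where it sits on chromatin. Known R-loop sites include starts of genes with CpG-rich, G-rich sequence behind the start and G-rich pause sites past the end of some highly transcribed genes, of which ACTB is a standard case. The 8 genes have unrelated products. ACTB encodes cytoplasmic beta-actin and GAPDH a glycolytic enzyme. EGR1 encodes a zinc finger transcription factor of the immediate early response, and CALM3 the calcium sensor calmodulin. ING3 belongs to a histone acetyltransferase complex, TFPT to the INO80 chromatin remodelling complex, APOE encodes a lipid-carrying apolipoprotein and BTBD19 a BTB domain protein.

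On GRCh38.p14, ACTB lies at chr7:5527148-5530601 on the minus strand and GAPDH at chr12:6534517-6538371 on the plus strand. EGR1 lies at chr5:138465479-138469303, CALM3 at chr19:46601074-46610782, BTBD19 at chr1:44808523-44815585 and APOE at chr19:44905796-44909393, all on the plus strand. ING3 lies at chr7:120950777-120977216 on the plus strand and TFPT at chr19:54107020-54115657 on the minus strand. CALM3, TFPT and APOE thus share a chromosome but no window. Exons and introns were not assigned here.

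The promoter sequences of 4 of these genes show how different the loci are, and the peak data bear on each of them. RefSeq promoter windows (build GRCh38.p14, 250 bases before to 50 after a transcript start) were matched for 6 of the 8 genes, which have 10 windows in all. No entry was matched for ACTB and ING3. Each line below is on the coding strand, from 5′ to 3′, and ends at the base before a transcript start. Capitals mark runs of 3 or more G. Each stretch lies before that transcript start, so its G runs are not those of the sequence behind the start named above. EGR1 (chr5:138465229-138465478, plus strand) is shown because it lay inside the strongest peak of the 8 loci. CALM3 (chr19:46601819-46602068, plus strand) is shown for the locus with both proteins, whose REXO4 peak lay upstream of the stretch and whose second RNaseH1 peak overlapped it. APOE (chr19:44905546-44905795, plus strand) is shown for a weak peak on a start with many runs of both G and C. That peak covered 57 bp before the start, so most of the stretch lay outside it. For TFPT (chr19:54115658-54115753, minus strand) only the 96 bases between its start and that of PRPF31 on the other strand are shown, a start where neither protein had a peak.
EGR1: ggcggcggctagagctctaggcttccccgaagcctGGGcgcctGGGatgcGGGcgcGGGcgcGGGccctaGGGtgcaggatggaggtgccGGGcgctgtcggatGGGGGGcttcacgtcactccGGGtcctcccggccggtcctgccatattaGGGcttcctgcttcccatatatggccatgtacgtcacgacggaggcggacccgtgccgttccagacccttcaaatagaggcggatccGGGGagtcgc
CALM3: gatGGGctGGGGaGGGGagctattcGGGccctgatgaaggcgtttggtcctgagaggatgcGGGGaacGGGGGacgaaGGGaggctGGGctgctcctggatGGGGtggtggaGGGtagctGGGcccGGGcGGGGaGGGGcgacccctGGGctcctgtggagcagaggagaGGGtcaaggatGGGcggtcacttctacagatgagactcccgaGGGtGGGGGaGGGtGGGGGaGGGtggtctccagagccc
APOE: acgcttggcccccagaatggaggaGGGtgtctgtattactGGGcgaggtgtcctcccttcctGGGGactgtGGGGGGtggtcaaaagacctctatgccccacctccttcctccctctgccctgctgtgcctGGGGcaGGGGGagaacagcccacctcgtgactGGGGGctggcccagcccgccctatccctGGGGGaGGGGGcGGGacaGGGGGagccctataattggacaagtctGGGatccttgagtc
TFPT: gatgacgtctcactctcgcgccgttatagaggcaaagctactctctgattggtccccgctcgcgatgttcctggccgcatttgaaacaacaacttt
The printed CALM3 stretch holds 22 G runs and 5 runs of 3 or more C. That of APOE holds 12 G runs and 11 C runs, and that of EGR1 11 and 6. The TFPT stretch holds 0 G runs and is rich in neither strand's runs, with 1 run of C.

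RNaseH1 peaks were present at 8 of 8 loci, but this is close to what most genes show: 82.1% of all protein-coding genes had an RNaseH1 peak within the gene or 5 kb of it, and 78.3% of those 3 to 27 kb long, a range that holds all 8 lengths. ACTB, ING3 and TFPT had 1 peak each, GAPDH had 2, EGR1 and CALM3 had 3, APOE had 4 and BTBD19 had 5. The median over the 8 loci was 2.5 peaks, against 2 over all protein-coding genes with a peak. The share of the window under peaks differed among the loci. Peaks covered 20.5% of the EGR1 window, 19.1% of that of GAPDH, 16.7% of that of APOE and 15.2% of that of ACTB. At the other end stood ING3 with 2.22% and TFPT with 1.77%. The median over all protein-coding genes of 3 to 27 kb with a peak was 5.37% (interquartile range 3.14 to 9.01). ING3 is by far the longest of the 8 genes at 26440 bp and so has the longest window.

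**Figure D1:**
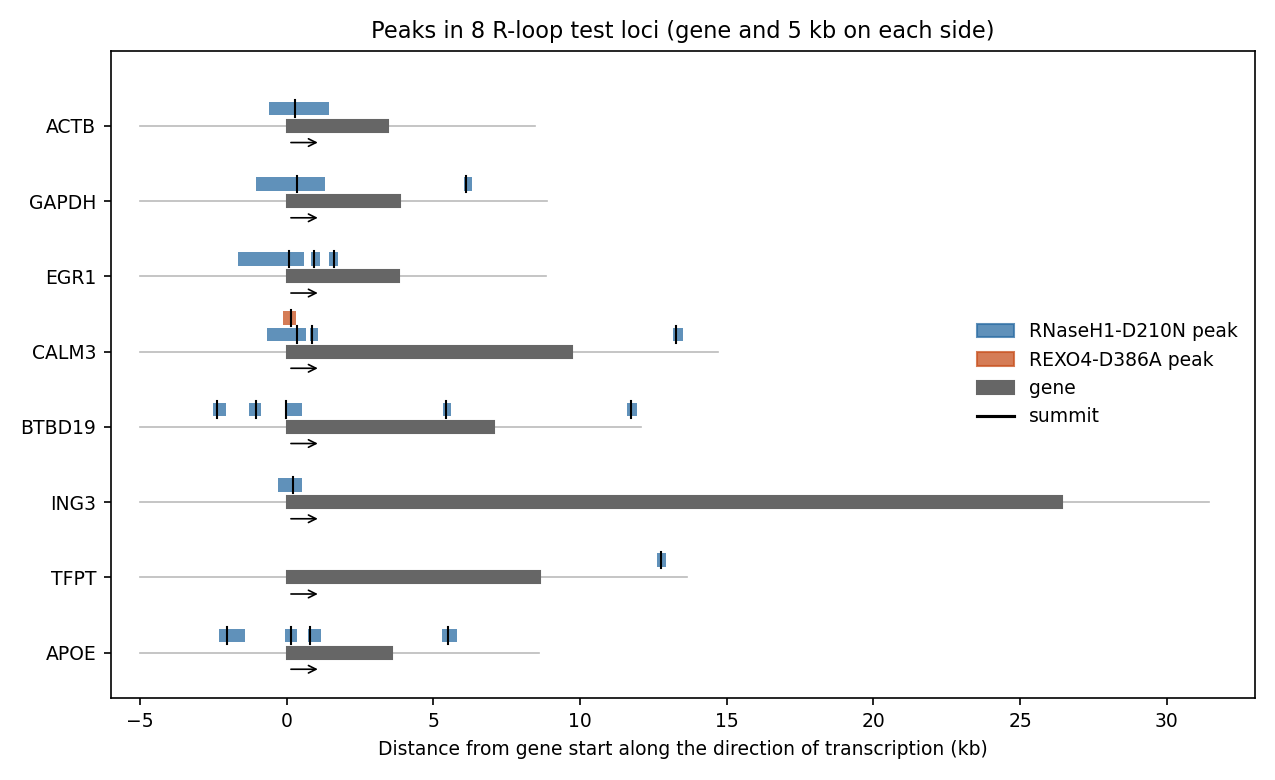
Map of the 8 loci, drawn from the gene start in the direction of transcription (x axis, kb). Grey boxes are genes, thin lines the 5 kb flanks, blue boxes RNaseH1 peaks, the orange box the REXO4 peak and black ticks summits. Peaks cover the gene start at all loci but TFPT, and only CALM3 has a REXO4 peak.

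The peaks gathered at the promoter side. Split at the middle of each gene, 14 of the 20 summits were on the side of the gene start and 6 on the side of the gene end. Over all protein-coding genes with a known strand, 62.8% of 37021 gene and peak pairs were on the promoter side, so the 14 of 20 is near the background. A promoter-side summit was found at 7 loci, all but TFPT, where 76.9% of all 15845 such genes had one. A terminator-side summit was found at 5 loci, against 45.9% of genes. ACTB, EGR1 and ING3 had peaks on the promoter side only. TFPT had a peak on the terminator side only, as 5.9% of genes did. GAPDH, CALM3, BTBD19 and APOE had both, as 40% of genes did. No summit lay within 1 kb of a gene end, where 8.95% of genes had one.

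At the 7 genes with a peak over the start, the summit sat just inside the gene. Its distance from the gene start was 90 bp at EGR1, 156 bp at APOE, 197 bp at ING3, 264 bp at ACTB, 334 bp at GAPDH and 358 bp at CALM3, while at BTBD19 it lay 13 bp before the start. The median was 197 bp, against 109 bp (interquartile range -16 to 222) over the 8655 such pairs of all genes. RefSeq gene boundaries take the outermost transcript, and this matters at GAPDH and CALM3. The transcript start in the promoter table lies 747 bp inside the GAPDH boundary, which puts the summit 413 bp before that start. At CALM3 the nearest such start lies 995 bp inside the boundary and the summit 637 bp before it. A peak over the start was found at 54.6% of all protein-coding genes with a known strand.

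**Figure D2:**
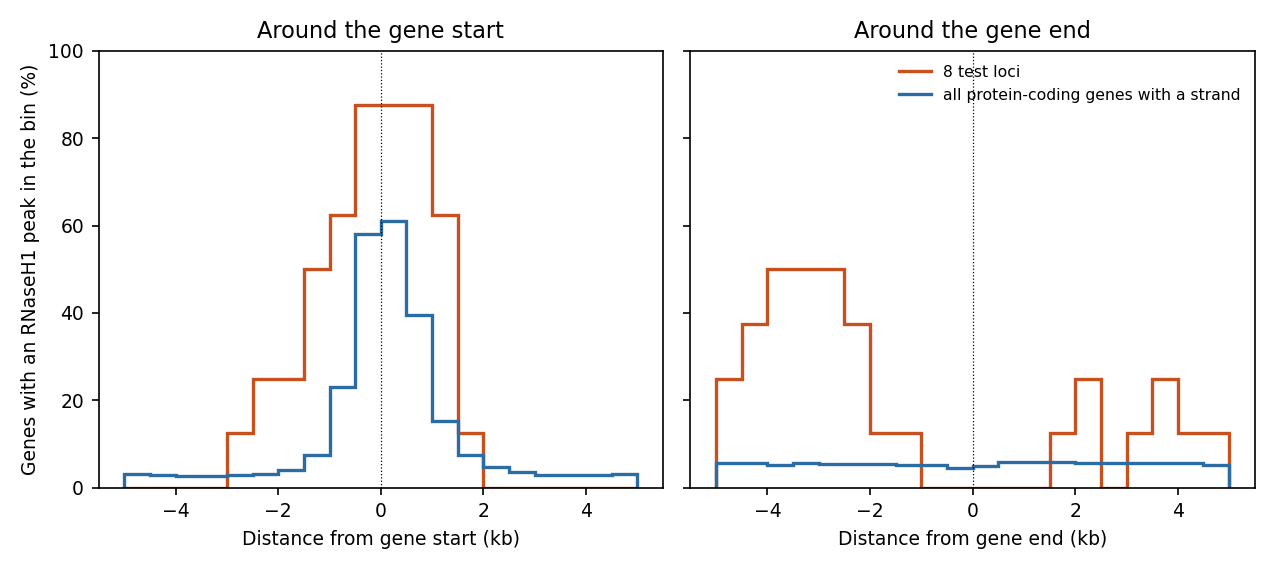
Share of genes with an RNaseH1 peak in each bin of 500 bp (y axis, %) by distance from the gene start (left) and the gene end (right), in kb along the direction of transcription. Orange is the 8 loci, where 1 locus is 12.5%, and blue is 15845 protein-coding genes. Both rise at the start, and the 8 loci have no peak from 1 kb before to 1 kb after the end. The rise from 5 to 2 kb before the end comes from short genes, whose start lies there.

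EGR1 was the locus of highest RNaseH1 enrichment. Its main peak (chr5:138463813-138466061) was 2249 bp wide and had a fold enrichment of 7.66 (95% exact Poisson interval 6.59 to 8.86, counting error of the ChIP fragments only) with 180 fragments at the summit against an expected pileup of 22.6. The fold is the authors' own value for each peak, and it places EGR1 at rank 317 by fold and 307 by q among the 54623 peaks. Among protein-coding genes with a peak, the highest fold of EGR1 was at percentile 99.2. No other peak of the 8 loci overlapped it by these intervals: those of all others ended at or below 4.66, and the next highest fold was 3.47 at ING3. With counting error of the control added, 5 of 18 other peaks did overlap it, as given below. The EGR1 peak covered 1666 bp before the gene start and 583 bp from it on. Downstream of it inside the gene lay 2 narrow peaks, at 936 bp (chr5:138466319-138466614) and 1618 bp (chr5:138466935-138467223) from the start. Their folds were 2.63 (1.84 to 3.67) and 2.39 (1.604 to 3.44), below the interval of the main peak. EGR1 had no peak in the second part of the gene or in the 5 kb past its end.

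ACTB and GAPDH, the housekeeping genes of the set, had wide peaks of ordinary fold on deep background. The ACTB peak (chr7:5529165-5531213) was 2049 bp wide, wider than 99.6% of the list, with a fold of 2.79 (2.38 to 3.26) that lay at percentile 34.3. It rested on 158 fragments against an expected 55.9, an expectation at percentile 98.0 of the list. The GAPDH start peak (chr12:6533463-6535818) was the widest of the 20 at 2356 bp, with a fold of 2.86 (2.42 to 3.37) and 145 fragments against 49.997. It reached across the gap of 110 bp into GAPDH-DT, the lncRNA gene beside the GAPDH start. The 2 intervals overlap almost entirely, so these peaks are not distinguishable by fold. By q they ranked 3719 and 4098 of 54623.

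Past the gene end the 2 genes differed in calls. ACTB had no peak in the second part of the gene or the 5 kb beyond it, the stretch in which its terminator pause region is known. GAPDH had a narrow peak 2247 bp past its end (chr12:6540557-6540842, 286 bp) with a fold of 2.14 (1.49 to 2.98), among the lowest 4.66% of the list. That summit lies inside the neighbouring gene IFFO1, an intermediate filament family gene. The nearer boundary of IFFO1 lies 590 bp past GAPDH, and its strand was not given in the sources used here. Fragment numbers where no peak was called were not analysed here, so the lack of a call is not a measured level of 0.

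CALM3 was the only locus with both proteins. The REXO4 peak (chr19:46600961-46601372, 412 bp) lay with its full length inside the RNaseH1 start peak (chr19:46600399-46601715, 1317 bp), and the summits were 230 bp apart. The REXO4 summit was 128 bp and the RNaseH1 summit 358 bp inside the gene boundary. Both summits were also within 1 kb of PPP5D1P, a transcribed pseudogene whose nearer boundary lies 158 bp from CALM3. The RNaseH1 start peak reached into PPP5D1P and the REXO4 peak did not. The REXO4 fold was 2.32 (1.90 to 2.80; 106 fragments against 45.1), at percentile 50.8 of its list by fold and rank 298 of 1460 by q. The RNaseH1 fold was 2.79 (2.32 to 3.32; 123 fragments against 43.4), at percentile 34.1 of its own list. Folds of the 2 lists are not set against each other. A second, weak RNaseH1 peak (chr19:46601881-46602135) overlapped the transcript start at 46602069 with a fold of 1.97 (1.39 to 2.72), among the lowest 1.9% of the list. It lay 509 bp from the REXO4 peak without overlap. On the terminator side a peak 3573 bp past the CALM3 end (chr19:46614225-46614578) had a fold of 2.11 (1.40 to 3.08) and the weakest q of the 20, 0.0176. Its summit was inside PTGIR, the prostacyclin receptor gene, whose annotation overlaps the CALM3 end by 96 bp.

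A REXO4 peak in the gene or 5 kb around it was found at 6.16% of all protein-coding genes and at 4.63% of those of 3 to 27 kb, so 1 of 8 is not far from the background. Of the 20 RNaseH1 peaks, 1 overlapped a REXO4 peak by at least 1 bp, where 2.03% of all RNaseH1 peaks and 2.34% of those in protein-coding windows did. The CALM3 summit of REXO4 was on the promoter side, as at 4.66% of genes with a known strand, and within 1 kb of the gene start, as at 3.29%. None of the 8 had a REXO4 summit on the terminator side (1.48% of genes), on both sides (0.17%) or on the terminator side only (1.31%), and none within 1 kb of the gene end (0.215%). Peaks over a gene start overlapped a REXO4 peak in 4.45% of cases. ACTB and GAPDH had a deeper expected pileup in the RNaseH1 list than CALM3 and no REXO4 peak. Among start peaks with an RNaseH1 expected pileup of 40 or more, 5.04% overlapped a REXO4 peak, against 4.31% below 40. That limit was chosen after the values were seen. The REXO4 peaks had a median expected pileup of 36.6 in their own list, where the RNaseH1 list had 7.14. What part depth had in the REXO4 calls was not tested. The nearest REXO4 peak was 17067 bp from GAPDH, at the IFFO1 boundary farther from GAPDH (chr12:6555438-6555942, fold 2.57), and it did not overlap an RNaseH1 peak. It was 91911 bp from APOE at RELB and 113812 bp from TFPT at CACNG6. From ACTB, BTBD19 and EGR1 it was 574313, 828909 and 1378708 bp away, and from ING3 3077046 bp. The median distance over all protein-coding genes was 534831 bp.

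ING3 and BTBD19 showed a single and a scattered pattern. The ING3 peak (chr7:120950473-120951280) was 808 bp wide, with 304 bp before the gene start and 504 bp from it on. Its fold was 3.47 (2.61 to 4.53; 52 fragments against 14.3), at percentile 69.3. It was the only start peak other than that of EGR1 above the list's median fold of 3.07, and its interval includes that median. No other peak was called in the rest of the 26440 bp gene. At BTBD19 the start peak (chr1:44808467-44809052, 586 bp) had a fold of 2.73 (1.88 to 3.84; 31 fragments). Its summit sat at 7.35% of the peak's width, on the upstream edge. The highest fold of that locus, 3.15 (2.28 to 4.24), was 1039 bp upstream (chr1:44807250-44807659), at the start of DYNLT4, a dynein light chain gene read from the other strand. The remaining 3 were 2382 bp upstream inside DYNLT4 (chr1:44806000-44806454, fold 2.56), 1622 bp before the BTBD19 end (chr1:44813837-44814137, 2.82) and 4661 bp past it (2.76). All 5 intervals overlapped, so BTBD19 had no peak that stood out.

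APOE had several weak peaks along the gene and TFPT none of its own. The peak over the APOE start (chr19:44905739-44906129) had a fold of 2.25 (1.47 to 3.30; 24 fragments against 10.1), the lowest of the 7 start peaks. A second peak 809 bp inside the gene (chr19:44906518-44906966) had 3.19 (2.11 to 4.66; 25 fragments). Its summit lay 204 bp past another APOE transcript start, at 44906401. The intervals of these peaks overlap. Upstream, a 909 bp peak (chr19:44903481-44904389) with a fold of 2.94 (2.096 to 4.03) spanned the end of TOMM40, the gene of a mitochondrial import channel. Downstream, a peak 1888 bp past the APOE end (chr19:44911076-44911601) had 2.36 (1.59 to 3.37) and lay in no other annotated gene. At TFPT the only peak in the window (chr19:54102720-54103048, fold 2.94, 2.21 to 3.85) was 4120 bp past its end, on the start of NDUFA3, a gene of respiratory complex I that overlaps the TFPT end. In the other direction, the nearest RNaseH1 peak to the TFPT start was 21949 bp away at CNOT3 (chr19:54137606-54138124). The start that TFPT shares with PRPF31, a splicing factor gene beginning 97 bp away, thus had no peak in either list.

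**Figure D3:**
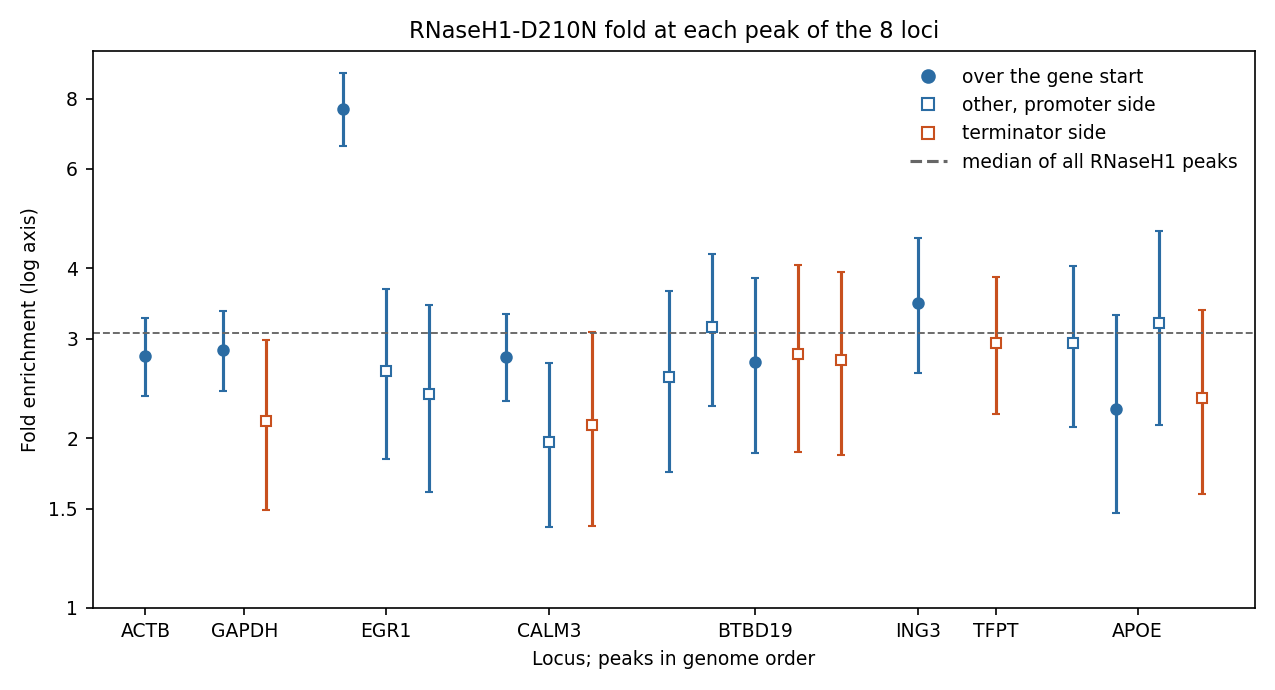
Fold enrichment of the 20 RNaseH1 peaks (y axis, log), by locus, with 95% exact Poisson intervals of the ChIP fragments. Filled circles are peaks over a gene start, open squares other peaks, orange the terminator side, and the dashed line the list's median of 3.07. By these intervals, which leave out counting error of the control, only the EGR1 start peak lies clear of the rest.

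Several window peaks belonged by position to other genes. Of the 20, 7 had a summit in or within 1 kb of another protein-coding gene and more than 1 kb from the member, 4 of the 6 on the terminator side and 3 of the 14 on the promoter side. Without them 13 peaks were left at 7 loci, and the terminator side held 2, the one inside BTBD19 and the one past APOE. The limit of 5 kb also decided which peaks were counted. The farthest counted peak began 4532 bp from BTBD19 (fold 2.76). The nearest uncounted one began 5107 bp from APOE, in APOC1 (fold 3.32).

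Set against the whole RNaseH1 list, the 20 peaks were of low fold and high expectation. Their median fold was 2.77, against 3.07 for all RNaseH1 peaks, and 4 of the 20 were above the list median. Their expected pileup, the fragments predicted at the summit, had a median of 11.9, against 7.14 for the list, and was above the list median at 19 of 20. Widths ran from 255 to 2356 bp with a median of 429.5 bp, against 365 bp for the list. The 7 start peaks had a median width of 1317 bp and a median fold of 2.79. Over all 8655 start peaks these were 873 bp (interquartile range 647 to 1177) and 3.11 (2.69 to 3.63). The other 13 had a median width of 341 bp and a median fold of 2.63. The expected pileup of all 8655 start peaks had a median of 28.0 (interquartile range 19.6 to 37.5), so the list median is a low mark for start peaks. The start peaks of ACTB, GAPDH and CALM3 lay above that range, EGR1 (22.6) inside it. Those of ING3 (14.3), BTBD19 (10.7) and APOE (10.1) lay below it. EGR1 had the second widest of the 7 start peaks, 2249 bp, at a lower expectation than ACTB, GAPDH and CALM3. What part depth had in width was not tested.

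**Figure D4:**
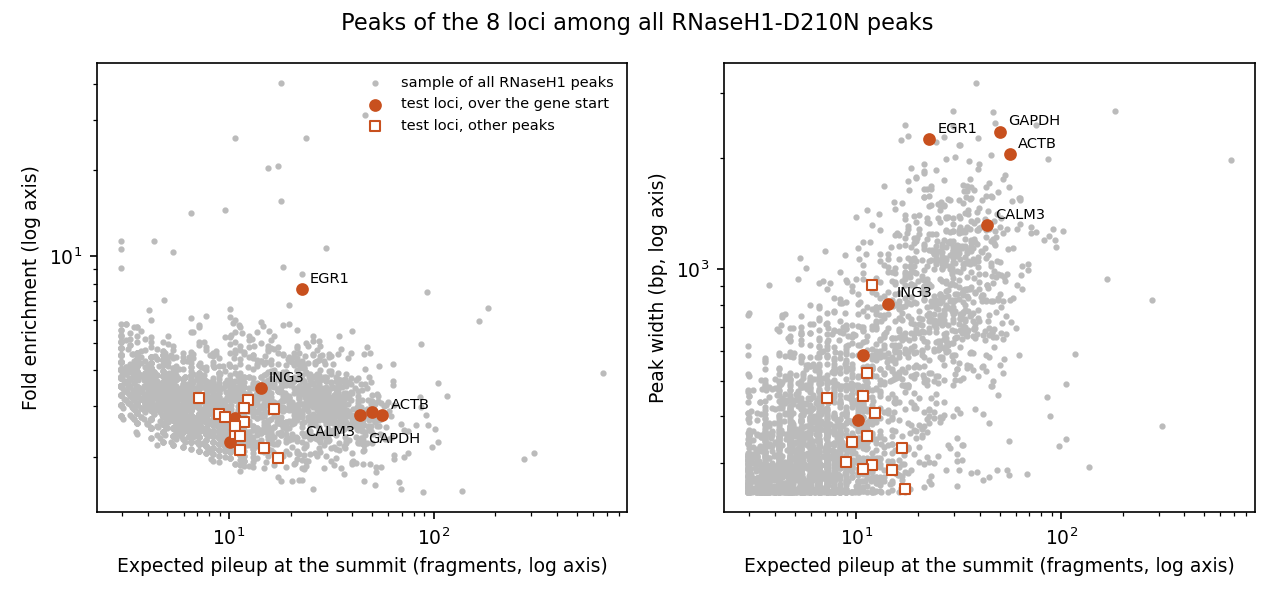
Fold (left) and width in bp (right) against the expected pileup in fragments, all on log axes. Grey points are a sample of all RNaseH1 peaks, filled orange circles the start peaks of the 7 loci and open squares their other 13 peaks. ACTB, GAPDH and CALM3 lie to the right at ordinary folds, EGR1 lies above, and the 4 named peaks are among the widest.

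Counting error in the expected value widens these intervals. The expected pileup of 19 of the 20 peaks was a whole multiple of 0.595 fragments, a step found from the list itself. This step was taken as the worth of 1 control fragment, so that control fragments could be read back. The control was not described, so the control counts and ratios below rest on that assumption. EGR1 rested on 180 ChIP and 38 control fragments, a ratio of 7.96 with a 95% exact interval of 5.58 to 11.6. ACTB rested on 158 and 94 (ratio 2.82, 2.17 to 3.69), GAPDH on 145 and 84 (2.90, 2.202 to 3.84), CALM3 on 123 and 73 (2.83, 2.102 to 3.84) and ING3 on 52 and 24 (3.64, 2.204 to 6.17). The BTBD19 start peak had 31 and 18 (2.89, 1.57 to 5.49) and that of APOE 24 and 17 (2.37, 1.22 to 4.70). EGR1 stayed above the start peaks of ACTB, GAPDH, CALM3, BTBD19 and APOE. Of the 18 other peaks with a ratio, 5 had intervals that overlap that of EGR1: ING3, the upstream peak and the peak inside the gene at APOE, and at BTBD19 the peak before the gene end and the one past it. These ratios leave out the 1 that is added to both terms of the fold.

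The promoter windows of the loci differed more in strand composition than in GC content. Of the 10 windows, 7 were overlapped by an RNaseH1 peak, from 5 genes, against 44.5% of all 35116 windows. None was overlapped by a REXO4 peak, which 1.62% of windows were. The 10 windows are not independent, as the 2 of CALM3 share nearly all their bases and the first and second of APOE overlap. GC skew is the excess of G over C on the coding strand, as a share of both. In the first CALM3 window it was 0.48, at percentile 99.7. That window had 24 runs of 3 or more G, where the median of all windows was 6. APOE rose from a skew of 0.07 in its first window to 0.27 in the second and 0.48 in the third. The TFPT windows lay at opposite ends. The first, at the gene start, had a skew of -0.26, at percentile 3.63, and 0 G runs, and the second, at a transcript start 583 bp inside the gene, had 0.32, at percentile 97.4, and 6 G runs. GAPDH was also on the C side, with a skew of -0.13 at percentile 16 and 17 runs of 3 or more C. EGR1 (0.07) and BTBD19 (-0.04) lay near the middle. The window of EGR1, the locus of the strongest peak, thus did not have the strongest skew of the 10. The CALM3 windows lay outside the CALM3 start peak and were overlapped by its second, weak peak. Whether skew and fold go together was not tested.

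Windows with a peak were higher in GC content. The 7 windows with a peak had 63.67 to 70.67% G and C, and the 3 without one, from TFPT and APOE only, had 52.33 to 55%. Over the whole table the median was 67.3% in windows with an RNaseH1 peak and 49% in those without, while the median skew was 0.0136 and 0.0110. Windows with a REXO4 peak had a median of 77.67%. The CpG ratio, observed over expected CpG pairs, had medians of 0.852 in windows with an RNaseH1 peak and 0.26 without. Among the 10 it was highest, 0.946, in the first TFPT window, which had no peak. Of those with a peak, EGR1 and GAPDH lay at percentiles 83.1 and 63.7. The CALM3, BTBD19 and first and second APOE windows, also with a peak, lay at 27.8 to 42.3. Without a peak, the third APOE window lay at 57 and the second TFPT window at 39.2. Motifs were searched on both strands of each 300-base window. The GC box GGGCGG, which can overlap a G run, was found 2 times each in the GAPDH, CALM3 and first APOE windows and 0 times in the other APOE windows and those of EGR1, BTBD19 and TFPT. It was in 45% of all windows. The CArG box, the site of serum response factor, was found 2 times in the EGR1 window and 1 time in the second TFPT window, which had no peak, and 1.29% of all windows had it. TATAAA was in none of the 10 windows and in 11.5% of all. CCAAT was in 4 of the 10, both TFPT windows and the first and the third of APOE, and in 34.6% of all.

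**Figure D5:**
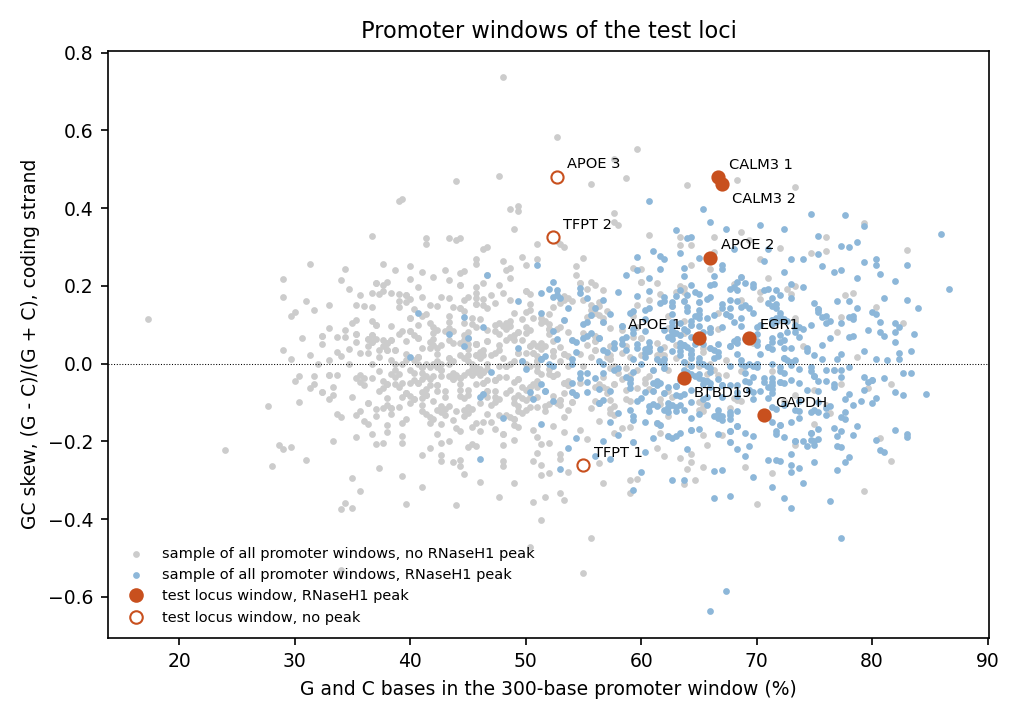
GC skew on the coding strand (y axis) against GC content (x axis, %) of 300-base promoter windows. Small points are a sample of the 35116 windows, blue with and grey without an RNaseH1 peak, and large circles the 10 windows of 6 test loci, filled where a peak overlaps and numbered where a gene has several. CALM3 and the third APOE window have the highest skew, 0.48, and the first TFPT window the lowest, -0.26.

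Other gene lists counted in the same windows gave similar shares. Of 12 other loci used in R-loop assays, 12 had an RNaseH1 peak and 0 a REXO4 peak, and 10 of 10 with a known strand had a promoter-side summit. Their highest folds, at MALAT1 (9.48, 8.18 to 10.9) and NEAT1 (7.84, 6.69 to 9.14), both nuclear lncRNA genes, had intervals that overlap that of EGR1. Their median highest fold was 3.67, against 3.04 for the 8 test loci and 3.52 for all protein-coding genes with a peak. Of 12 reference genes of expression assays, a list that could as well hold ACTB and GAPDH, all 12 had a peak, among them GUSB (5.82, 5.08 to 6.63), and 0 had a REXO4 peak. Of 6 loci used as R-loop-poor sites, 6 had an RNaseH1 peak too, with TCF21 (4.23) and HBB (3.39) highest. Within 1 kb of the gene start a summit was found at 1 of the 3 poor sites with a known strand, at 9 of 10 other R-loop loci, at 9 of 9 reference genes and at 7 of the 8 test loci, against 63.5% of all protein-coding genes with a known strand. SNRPN, a poor site, had a REXO4 peak (6.29), and its RNaseH1 peak had a fold of 2.17.

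Relatives of the 8 genes had RNaseH1 peaks as well. Of 16 family members, 15 had a peak and 0 had a REXO4 peak. CALM2 had a fold of 3.35 (2.84 to 3.93), an interval that overlaps that of CALM3 (2.79, 2.32 to 3.32). EGR4 (4.41, 3.27 to 5.81) and EGR2 (4.11, 3.09 to 5.36) lay below EGR1. ACTG1, the gene of the other cytoplasmic actin, had a fold of 3.07 (2.69 to 3.497) on a peak 4005 bp wide, and its interval overlaps that of ACTB. ACTC1, the actin gene of heart muscle, had no RNaseH1 peak. ACTB, GAPDH and CALM3 have close relatives or many pseudogene copies, so fragments from their exons may have been placed on a copy, and how such fragments were treated was not stated in those sources.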

How the data were processed

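The values were 2 peak lists in narrowPeak form, 1 per protein, in hg38 coordinates. Per the submitters' processing notes, the authors used Trim Galore 0.6.10, HISAT2 2.2.1, SAMtools 1.17, deepTools 3.5.1 and MACS2 2.1.0.20150731. For the libraries entered, the control, pooling and the threshold, details were not given in the sources used here. Fold enrichment (a ratio) and, on the −log10 scale, p and q were used as the authors deposited them per peak, and the deposited score column was not used. The largest q was 0.198 in the RNaseH1 list and 0.179 in the REXO4 list.

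Genes were matched by symbol in RefSeq's table for GRCh38.p14, 8 of 8. Strand came from RefSeq's promoter table, and for ACTB and ING3 from general knowledge. A gene counted where a peak overlapped it or the 5 kb on either side by at least 1 bp. A summit was on the promoter side where it lay nearer the gene start than the gene end. Fragments at each summit were recovered from fold and p (tolerance 0.05), giving whole numbers for 54623 of 54623 RNaseH1 and 1459 of 1460 REXO4 peaks. The expected pileup was a whole multiple of 1 step, within 0.03, in 76.2% of RNaseH1 peaks under 60 expected fragments. The multiple was taken as the number of control fragments. This reading was chosen after the values were seen, and intervals cover counting error only.

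No test between groups was made. All 8 genes were named, and of each other list the 2 of highest RNaseH1 fold, those with a REXO4 peak and those without an RNaseH1 peak, with neighbours in the window, except for a few that are not reported here. CALM2, EGR2 and ACTG1 were named after their values were seen. Members and lists were chosen with earlier results of these data known. Window, overlap, q limit and side were varied. Fragment recovery and the assignment of sides were tested on simulated data. Computations ran in Python 3.11.15 with pandas 2.3.3, matplotlib 3.10.9, SciPy 1.17.1 and NumPy 2.4.6.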

Additional observations from a re-analysis of the deposited data

How the results depend on the processing

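No paired analysis was possible because the lists hold no value per library, and leaving out a replicate was not possible for the same reason. With windows of 1 kb, 7 of 8 loci had an RNaseH1 peak (78.5% of protein-coding genes), TFPT being the one lost. With windows of 10 kb, a q of 0.01 or less, or summits inside the window, all 8 did, against 80.6 to 85.1%. Leaving out peaks at other protein-coding genes left 7. The number of loci with a REXO4 peak was 1 under each of these windows and limits, against 5.46 to 7.01%. With a REXO4 peak within 1 kb in place of overlap, 2 of the 20 RNaseH1 peaks counted, both at CALM3, against 2.74% of the list. The promoter side held 14 of 19 peaks at a q of 0.01 or less (64.2% over all genes with a known strand) and 12 of 13 with windows of 1 kb (67.1%). Counted within 1 kb of the gene start and end, it held 10 against 0 (89.0%). The peaks at APOE, BTBD19 and the gene ends rest on 24 to 51 fragments, which limits what differences between them could be seen.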
